A study of Homo sapiens with 24 samples.

Results

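CD33 knockout macrophages were compared with wild-type macrophages while the phosphatase PTPN6 was knocked down in both. The members are the 11 count columns labelled CD33KO_shPTPN6 (5 libraries, replicates 1, 3, 4, 5 and 6) and WT_shPTPN6 (6 libraries), of 23 count columns and 24 labelled samples in the series. CD33KO_shPTPN6 replicate 2 was not analysed here. CD33KO_shPTPN6 cells were THP1 cells with a CD33 knockout that carried a PTPN6 hairpin in pLKO.1, and WT_shPTPN6 cells were THP1 cells of wild-type genotype with the same hairpin vector. The matching cells with the empty vector, CD33KO_shCTRL and WT_shCTRL (6 libraries each), are used only to ask whether the genotype difference changed with the vector. THP1 is a human monocytic leukaemia line, and both genotypes passed through the same steps: lentiviral transduction for 24 hours, 48 hours of rest, puromycin at 1 µg/ml, PMA at 10 ng/ml for 48 hours and 48 hours more without PMA. RNA was sequenced from its 3' end (QuantSeq) and deposited as raw counts per gene, which are given below as CPM, that is, scaled to libraries of 1000000 counts after TMM normalisation. The labels do not say whether the knockout is 1 clone, where CD33 was cut, or whether replicates were separate cultures, so the p-values measure only the spread between these libraries. The series asks how loss of CD33, an Alzheimer's disease-associated receptor, bears on phagocytosis, the oxidative burst and inflammation. This pair of groups asks it where a hairpin had lowered PTPN6 transcripts, and PTPN6 protein was not measured here.

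CD33 is a sialic acid-binding receptor (Siglec) of myeloid cells whose tail carries immunoreceptor tyrosine-based inhibitory motifs (ITIMs). Once phosphorylated by kinases of the SRC family, an ITIM recruits the phosphatases SHP-1, which PTPN6 encodes, and SHP-2, which PTPN11 encodes. These dampen signals that start at activating receptors through adaptors such as TYROBP and the kinase SYK. In macrophages and microglia such signals feed into phagocytosis, the NADPH oxidase and the transcription of inflammatory genes.

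The hairpin's target and stretches of 4 promoters are shown because the knockdown and the promoter motifs of the inflammatory and interferon response genes recur below. The target lies in exon 12 of the 16 exons of the coding PTPN6 transcripts (GENCODE 29), within coding sequence, at chr12:6959963-6959983 on the plus strand of GRCh38, and it matched 7 transcripts, all of PTPN6. In the promoter stretches, which are the 150 bases before the RefSeq start (GRCh38.p14) and are written on the gene's own strand, capitals mark 2 motifs of 10 bases: in ISG15 and IFITM3 the core of the interferon-stimulated response element (GAAA, any 2 bases, GAAA), and in CXCL1 and CXCL2 a kappa B core (GGGA, any 2 bases, TTCC).
PTPN6 hairpin target: cgacatgctcatggagaacat
ISG15, chr1:1013347-1013496, plus strand: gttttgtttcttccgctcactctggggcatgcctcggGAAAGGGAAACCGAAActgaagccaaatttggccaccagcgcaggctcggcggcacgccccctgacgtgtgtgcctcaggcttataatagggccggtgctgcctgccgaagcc
IFITM3, chr11:320861-321010, minus strand: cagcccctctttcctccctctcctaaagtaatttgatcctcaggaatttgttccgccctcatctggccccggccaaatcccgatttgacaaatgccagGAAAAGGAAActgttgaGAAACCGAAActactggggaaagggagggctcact
CXCL1, chr4:73869243-73869392, plus strand: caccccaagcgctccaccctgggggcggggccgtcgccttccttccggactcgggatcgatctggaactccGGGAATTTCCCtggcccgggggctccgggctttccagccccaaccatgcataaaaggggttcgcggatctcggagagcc
CXCL2, chr4:74099196-74099345, minus strand: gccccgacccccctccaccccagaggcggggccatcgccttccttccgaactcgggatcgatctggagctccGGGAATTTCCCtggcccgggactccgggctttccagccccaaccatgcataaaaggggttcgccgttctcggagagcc

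Library totals ran from 2024032 to 2581042 counts in CD33KO_shPTPN6 and from 3318001 to 6269304 in WT_shPTPN6, so the deepest knockout library held fewer counts than the shallowest wild-type library. Mitochondrial transcripts took 6.36 to 6.55% of counts in the knockout libraries and 7.85 to 8.70% in the wild-type libraries. Correlations between libraries (log2 CPM) were 0.973 to 0.975 within CD33KO_shPTPN6 and 0.981 to 0.988 within WT_shPTPN6, against 0.897 to 0.907 across the 2 groups. All 12 macrophage markers set against the label were counted in every library. CD14 (1272 to 1427 CPM in the knockout, 842 to 894 CPM in wild type), CEBPB and LAPTM5 were higher in the knockout, and CD68 (40.9 to 52.8 CPM in the knockout, 40.9 to 53.2 CPM in wild type) did not pass the test. CD4 (73.2 to 92.4 CPM in the knockout, 245 to 309.6 CPM in wild type), AIF1 (70.6 to 90.5 CPM in the knockout, 235 to 269.8 CPM in wild type), ITGAM, TYROBP, FCER1G, CSF1R and SPI1 were lower, as was LYZ. LYZ, the lysozyme gene and an abundant transcript of monocytes and macrophages, was nearly absent from the knockout libraries: 6.42, 6.86, 3.14, 4.12 and 7.77 CPM in CD33KO_shPTPN6, against 192, 235 and 256 CPM (lowest, median and highest) in WT_shPTPN6. Of other cell types, summed fibroblast and endothelial markers (16 listed, 9 tested) were at 742 to 802 CPM in the knockout and 392 to 464 CPM in wild type, with 3 members higher and 0 lower (5 higher without WT_shPTPN6 replicate 1). PECAM1, which is also a myeloid gene, made up most of this sum (667 to 743 CPM in the knockout, 364 to 393 CPM in wild type). Summed epithelial and HEK-293 markers (13 listed, 4 tested, 2 higher and 1 lower) were at 96.1 to 118 CPM in the knockout and 68.0 to 105 CPM in wild type. Summed lymphoid markers (18 listed, 6 tested, 1 higher and 2 lower) were at 444 to 488 CPM in the knockout and 419 to 522 CPM in wild type. Summed erythroid and megakaryocyte markers (15 listed, 3 tested, 2 higher and 0 lower) were at 15.5 to 34.1 CPM in the knockout and 9.51 to 16.9 CPM in wild type, with 5 listed members at 0 in all 11 libraries. Over all genes tested 29.0% were called higher and 27.5% lower, and these counts of few members are to be read against those shares. For fibroblast and endothelial markers the share higher was 33.3%, near that over all genes. What part these markers have in the gene differences was not tested. In such bulk RNA, fewer cells of a type and less of a transcript per cell cannot be told apart.

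CD33 transcripts were lower but not absent in the knockout, and PTPN6 was low in both groups. CD33 (chr19:51225064-51243860) had 23.7, 23.8, 15.7, 25.3 and 29.0 CPM in the CD33KO_shPTPN6 libraries, and 81.3, 88.0 and 94.9 CPM (lowest, median and highest) in the WT_shPTPN6 libraries. No knockout library reached the lowest wild-type one, yet none was at 0. The log2 fold change was -1.91 ± 0.10 (SE) with an adjusted p of 6.73e-34 by the edgeR quasi-likelihood test, and 0.00433 in a two-sided exact permutation test of the 5 against 6 libraries, the smallest p this design allows. With the empty vector CD33 averaged 20.2 ± 2.45 CPM in CD33KO_shCTRL and 45.5 ± 3.24 CPM in WT_shCTRL (SD, n = 6 each), a log2 fold change of -1.16 ± 0.10. Reads from the 3' end that lie outside the edited part do not check the knockout, and the edited part is not stated. PTPN6 (chr12:6946468-6961316) had 4.94, 7.31, 7.63, 11.9 and 5.32 CPM in CD33KO_shPTPN6 and 8.73, 10.7 and 12.8 CPM (lowest, median and highest) in WT_shPTPN6, and the groups overlapped. It averaged 37.7 ± 3.88 CPM in CD33KO_shCTRL and 44.6 ± 6.24 CPM in WT_shCTRL. PTPN6 was thus lower in the knockout also among the hairpin libraries (log2 fold change -0.52 ± 0.19, adjusted p 0.0166 by edgeR's test, exact permutation p 0.0346). That call was lost when counts were thinned to 1 depth (-0.40, adjusted p 0.118), without CD33KO_shPTPN6 replicate 1 (-0.42, adjusted p 0.0761) and without replicate 6 (-0.42, adjusted p 0.0845).

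**Figure D1:**
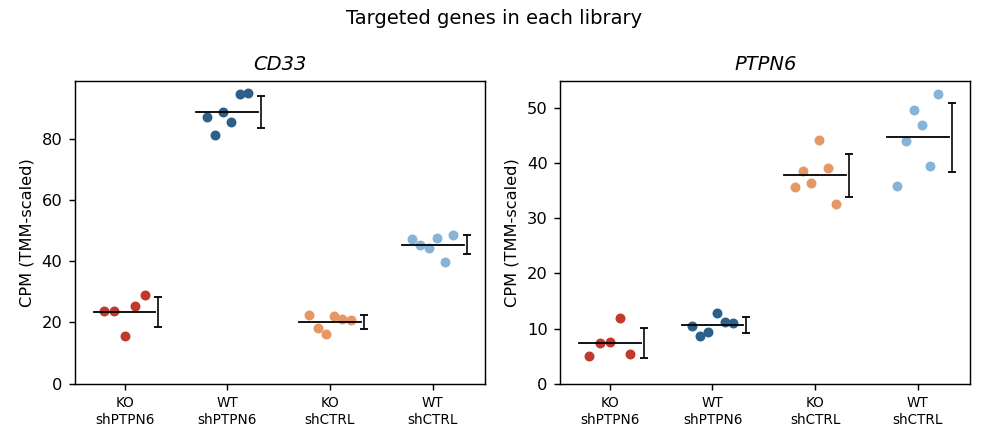
Normalised counts (CPM) of CD33 and PTPN6 in each library of the 4 groups, with the group mean (line) and SD (bar at its right). CD33 lies at 15.7 to 29.0 CPM in CD33KO_shPTPN6, below 81.3 to 94.9 CPM in WT_shPTPN6, and PTPN6 lies at 4.94 to 11.9 CPM and 8.73 to 12.8 CPM in these groups.

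Most tested genes differed between the genotypes under PTPN6 knockdown. Of 13098 genes tested, those of 60617 identifiers with enough counts for a test, 7401 (56.5%) were called at an adjusted p under 0.05 by edgeR's quasi-likelihood test. Among them 3802 (29.0%) were higher and 3599 (27.5%) lower in CD33KO_shPTPN6, and the 2 groups of libraries did not overlap at 4877 genes (37.2%). A change of at least 2-fold was called for 1101 genes (8.41%) upward and 1033 (7.89%) downward. Counts of list members above and below are to be read against these shares.

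Among the largest rises were CDH13, which encodes T-cadherin, HSPG2, which encodes the matrix proteoglycan perlecan, and NRG4, which encodes neuregulin 4. HSPG2 had 12742, 10747, 12256, 10371 and 9024 CPM in CD33KO_shPTPN6 and 17.2, 22.7 and 35.8 CPM (lowest, median and highest) in WT_shPTPN6. CDH13 had 1427, 1095, 1321, 1109 and 973 CPM in the knockout and 0, 0.852 and 2.11 CPM in wild type. All knockout libraries were far above all wild-type ones for both genes. NRG4 (1517 to 2098 CPM in CD33KO_shPTPN6, 0.546 to 2.74 CPM in WT_shPTPN6) overlaps FBXO22 on the other strand, and whether reads were counted by strand is not given in the sources used here. The same doubt holds for PTPN11, RSAD2, MCM2, MCM7, FTH1, BMP8B, CYP1B1, TNFAIP3, FCGR1A, ITGB2 and SIRPA, named below, whose exons overlap a gene on the other strand, and for CD163, ITGA1 and ETV5, which overlap a gene on their own strand. RPS26P52 (1187 to 1829 CPM in the knockout, 0.301 to 3.61 CPM in wild type) is a pseudogene copy of RPS26, so its reads cannot be placed with certainty. The receptor genes TAAR8 (15.3 to 22.1 CPM) and DRD1 (7.36 to 18.3 CPM) were counted in every knockout library and in no wild-type library. Set against 3 counts over the wild-type group, TAAR8 was at least 162-fold higher and DRD1 at least 99.97-fold higher. FOXC2 and LINC01287 completed the 8 largest rises at 10.6 to 21.0 CPM and 20.7 to 28.6 CPM in the knockout, against at most 0.249 CPM and 0.301 CPM in wild type.

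The largest falls included CCR2, FCN1 and CD93, which monocytes are known to express. CCR2, the receptor that draws monocytes towards CCL2, was counted in no CD33KO_shPTPN6 library and had 9.96, 15.4 and 18.6 CPM (lowest, median and highest) in WT_shPTPN6. Against 3 counts over the knockout group it was at least 54.7-fold lower, and PGA5, a pepsinogen gene also at 0 in the knockout, at least 38.0-fold lower. FCN1, which encodes the monocyte lectin ficolin-1, had 0, 0, 0.449, 0 and 0.409 CPM in the knockout and 41.5, 46.2 and 47.8 CPM in wild type. CD93, a surface receptor of myeloid and endothelial cells, had 0, 0.914, 0.449, 0.515 and 1.23 CPM in the knockout and 67.4, 74.3 and 81.4 CPM in wild type, a log2 fold change of -6.78 ± 0.23 (adjusted p 7.60e-51, edgeR). In these genes the groups were far apart. DPEP1, a dipeptidase gene, BIRC7, an inhibitor of apoptosis, the transcription factor gene MYT1 and the cytochrome P450 gene CYP2S1 were the other 4, at no more than 2.29 CPM in any knockout library and at least 7.93 CPM in every wild-type library.

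**Figure D2:**
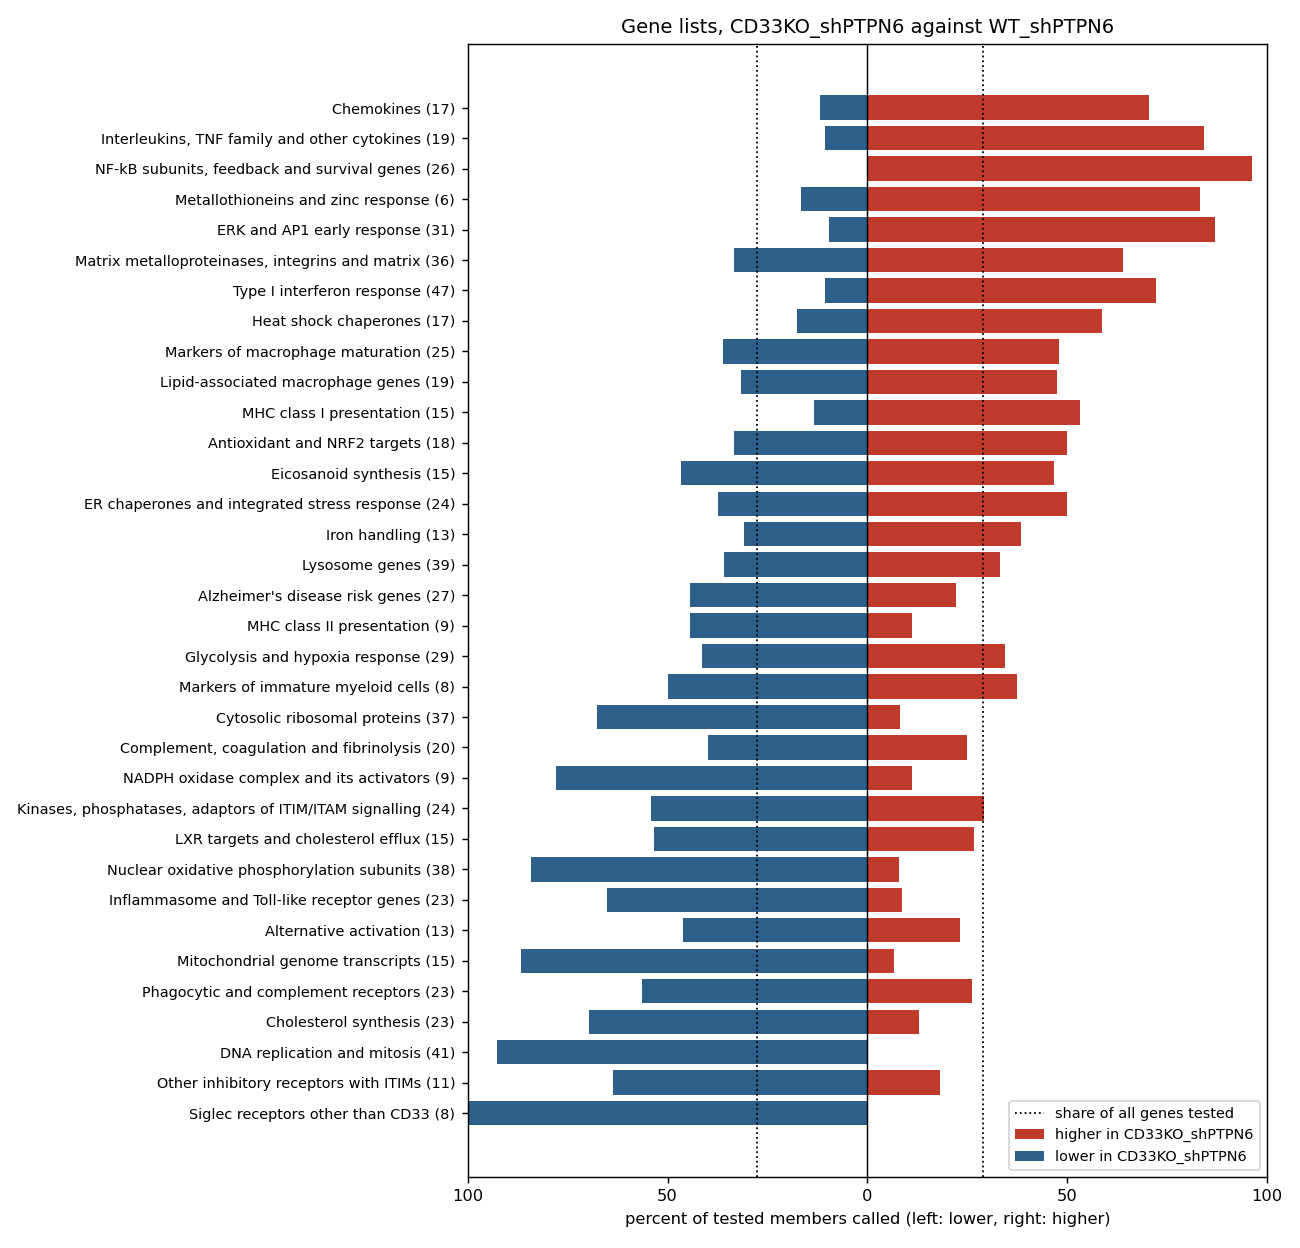
Share of the tested members of each gene list (number in brackets) called higher (right) or lower (left) in CD33KO_shPTPN6 against WT_shPTPN6, ordered by median log2 fold change. Dotted lines mark the shares over all genes tested, 29.0% higher and 27.5% lower. NF-kB, cytokine and chemokine genes lie at the top, and Siglecs, other ITIM receptors and replication genes at the bottom.

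Inflammatory transcripts were broadly higher in the knockout under PTPN6 knockdown. Of 26 tested genes for NF-kB subunits, feedback inhibitors and survival factors, 25 rose and 0 fell, and the median log2 fold change was 1.18 against 0.0067 over all genes tested. IER3, an early response gene that limits cell death, had 3349, 2907, 3751, 3362 and 3478 CPM in CD33KO_shPTPN6 and 207, 224 and 283 CPM (lowest, median and highest) in WT_shPTPN6, a log2 fold change of 3.86 ± 0.06 (adjusted p 7.01e-54, edgeR). BCL2A1, a BCL2 relative that protects myeloid cells from apoptosis, had 256, 270.1, 252, 235 and 263 CPM in the knockout and 37.0, 39.7 and 50.3 CPM in wild type. Every knockout library was several times above every wild-type one for both. CD83, a marker of activated antigen-presenting cells, rose by 2.38, and the feedback inhibitors NFKBIA and TNFAIP3 by 1.12 and 1.20 on the log2 scale. CD40, a co-stimulatory receptor, was at 45.4 to 59.0 CPM in the knockout and 38.9 to 55.5 CPM in wild type and missed the threshold (adjusted p 0.0917, edgeR). It passed without CD33KO_shPTPN6 replicate 6 (0.0487), without WT_shPTPN6 replicate 1 (0.0313) and with counts thinned to 1 depth (0.0375).

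Of 19 tested cytokine genes, 16 rose and 2 fell (median log2 fold change 1.46). IL23A, which encodes the p19 subunit of interleukin 23, had 101, 88.7, 104, 111 and 103 CPM in CD33KO_shPTPN6 and 5.11, 6.57 and 11.2 CPM (lowest, median and highest) in WT_shPTPN6, 13.3 times the wild-type mean (log2 3.75 ± 0.11, adjusted p 9.36e-58, edgeR). IL1B, the main secreted interleukin 1 of macrophages, had 6689, 6663, 6376, 6353 and 5957 CPM in the knockout and 690.4, 845 and 964 CPM in wild type. TNF, the tumour necrosis factor gene, had 97.8, 91.9, 87.5, 97.9 and 91.2 CPM in the knockout and 10.5, 14.9 and 19.1 CPM in wild type. For all 3 genes the lowest knockout library was several times above the highest wild-type one. IL1RN, which encodes the antagonist of the interleukin 1 receptor, rose with them (log2 fold change 1.69 ± 0.05), as did HBEGF, an EGF receptor ligand (1.27 ± 0.05). The 2 that fell were IL18 (6.70 to 11.9 CPM in the knockout, 15.7 to 28.3 CPM in wild type) and TNFSF13B, which encodes the B cell factor BAFF (-0.70).

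Of 17 tested chemokine genes, 12 rose and 2 fell (median 1.84). CXCL1, a neutrophil attractant, had 62.7, 47.99, 47.6, 50.5 and 47.0 CPM in CD33KO_shPTPN6 and 5.12, 6.15 and 7.22 CPM (lowest, median and highest) in WT_shPTPN6 (log2 fold change 3.03 ± 0.13, adjusted p 6.51e-42, edgeR). Its neighbour CXCL2 had 40.5, 55.3, 43.1, 50.5 and 43.8 CPM in the knockout and 1.504, 3 and 4.85 CPM in wild type. CXCL8, which encodes interleukin 8, had 1471, 1574, 1579, 1511 and 1616 CPM in the knockout and 216, 252 and 365 CPM in wild type. The groups were apart for all 3 genes. CCL1, a ligand of CCR8, showed the largest called rise of the list, 161 to 186 CPM in the knockout against 1.64 to 3.61 CPM in wild type (log2 6.33 ± 0.12). The exceptions were CCL5, which draws T cells and monocytes, at 132, 107, 112, 105 and 101 CPM in CD33KO_shPTPN6 and 210.5, 215 and 228 CPM in WT_shPTPN6, and CCL23, a chemokine of monocytes, at 0 to 2.06 CPM in the knockout and 1.25 to 3.17 CPM in wild type, with overlapping groups. The call of CCL23 was lost without CD33KO_shPTPN6 replicate 4 (adjusted p 0.0862, edgeR), without replicate 6 (0.0624) and without WT_shPTPN6 replicate 3 (0.0633).

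A kappa B core on either strand was found in 17 of 66 RefSeq promoters (25.8%, 250 bases before to 50 after the start) of the NF-kB, cytokine and chemokine genes that were higher in the knockout, and in 1.61% of all 35116 promoters. The 66 promoters belong to 43 of the 53 genes. In the CXCL1 and CXCL2 promoters printed above, the capitals hold a match on each strand, overlapping by all but 1 base. In promoters of genes tested the share was 1.52%. The lists were chosen by known function and with earlier results known, so the higher share describes the lists and does not bear on the knockout. A match describes letters, and binding was not measured.

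Of 23 tested inflammasome and Toll-like receptor genes, 2 rose and 15 fell (median -0.46). LY96, which encodes MD-2, the partner of TLR4 in binding lipopolysaccharide, had 7.41, 8.23, 6.73, 4.64 and 8.997 CPM in CD33KO_shPTPN6 and 31.4, 32.9 and 38.8 CPM (lowest, median and highest) in WT_shPTPN6 (log2 -2.21 ± 0.16, adjusted p 1.54e-24, edgeR). TLR4 itself was at 6.19 to 15.1 CPM in the knockout and 14.8 to 21.0 CPM in wild type, and PYCARD, the inflammasome adaptor ASC, at 56.2 to 79.4 CPM in the knockout and 105 to 117 CPM in wild type. The knockout libraries were the lower ones for LY96 and PYCARD throughout, and the groups overlapped for TLR4. The 2 that rose were NLRP3, the inflammasome sensor (49.4 to 69.1 CPM in the knockout, 36.7 to 45.1 CPM in wild type), and IRAK2, a kinase of interleukin 1 and Toll-like receptor signalling (22.7 to 31.1 CPM in the knockout, 3.31 to 5.46 CPM in wild type).

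Of 15 tested eicosanoid genes 7 rose and 7 fell, with prostaglandin enzymes and receptors among the first and leukotriene enzymes among the second. PTGES, the inducible prostaglandin E synthase, had 367, 344, 402, 347 and 339 CPM in CD33KO_shPTPN6 and 1.74, 4.83 and 5.41 CPM (lowest, median and highest) in WT_shPTPN6 (log2 6.38 ± 0.12, adjusted p 4.36e-41, edgeR). PTGS2, the inducible cyclooxygenase, had 87.4, 79.1, 89.3, 71.6 and 64.6 CPM in the knockout and 3.82, 4.70 and 5.23 CPM in wild type. PTGER4, a receptor of prostaglandin E2, was at 237 to 288 CPM in the knockout and 70.7 to 85.2 CPM in wild type. In each of these the lowest knockout library was far above the highest wild-type one. On the leukotriene side, LTA4H, the leukotriene A4 hydrolase, had 151, 156, 154, 138 and 153 CPM in the knockout and 496, 569 and 590.4 CPM in wild type, and ALOX5, the 5-lipoxygenase, was at 2.47 to 10.5 CPM in the knockout and 16.6 to 21.2 CPM in wild type.

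Of 31 tested immediate early and feedback genes downstream of ERK and AP1, 27 rose and 3 fell (median 0.91). DUSP2 and DUSP5, phosphatases that inactivate MAP kinases, were at 114 to 155 CPM and 139 to 165 CPM in CD33KO_shPTPN6, against 19.2 to 23.4 CPM and 23.7 to 34.6 CPM in WT_shPTPN6. EGR1, an immediate early transcription factor, had 58.8, 74.5, 66.9, 61.9 and 61.3 CPM in the knockout and 9.01, 11.3 and 15.4 CPM (lowest, median and highest) in wild type. The knockout libraries were the higher ones throughout. The 3 that fell were the transcription factor gene MYC (-0.54), SPRED1, an inhibitor of RAS signalling (-0.55), and ETV5 (-0.34).

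All tested relatives of CD33 were lower in the knockout. Of 14 listed Siglec genes 8 passed the filter on low counts, and all 8 fell (median -1.96), 4 of them called with a filter at 5 CPM. The first filter asks for enough counts in only as many libraries as the smallest group has. Members with low counts can thus pass it through wild type alone, and the count of 8 and its median may lean on these. SIGLEC15, a Siglec with an activating adaptor, had 2.47, 1.83, 1.80, 2.58 and 0 CPM in CD33KO_shPTPN6 and 19.4, 26.2 and 32.5 CPM (lowest, median and highest) in WT_shPTPN6 (log2 -3.96 ± 0.25, adjusted p 1.27e-28, edgeR). SIGLEC16 (5.03 to 11.04 CPM in the knockout, 37.6 to 47.2 CPM in wild type) and SIGLEC11 (1.55 to 5.93 CPM in the knockout, 10.5 to 18.04 CPM in wild type) are near-identical copies in part, so how their reads divide is uncertain. Summed over the listed Siglecs, levels were 21.5 to 31.1 CPM in the knockout and 108 to 134 CPM in wild type, without overlap.

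Of 11 tested other receptors with ITIMs, 7 fell and 2 rose (median -1.15). Their summed level was nonetheless higher in the knockout, at 1079 to 1144 CPM, against 907 to 977 CPM in wild type, and PECAM1, given above, made up most of it in the knockout. Here too members with low counts, such as LILRB3 (mean 2.51 CPM over the 11 libraries), can pass the filter through wild type alone. The count of 7 and the median may lean on these. The same limit holds for low-count members of every list, in whichever group they are high. LILRB4, an inhibitory receptor of monocytes, had 1.48, 1.83, 1.35, 4.12 and 3.68 CPM in CD33KO_shPTPN6 and 27.3, 30.8 and 38.5 CPM (lowest, median and highest) in WT_shPTPN6. LILRB1, which binds HLA class I, had 3.46, 4.11, 1.80, 3.61 and 4.498 CPM in the knockout and 15.7, 20.8 and 23.9 CPM in wild type. LAIR1, a collagen receptor, was at 73.7 to 101 CPM in the knockout and 173 to 211 CPM in wild type. These 3 fell without overlap. PECAM1, an adhesion receptor, and CD300A (65.4 to 72.2 CPM in the knockout, 30.1 to 36.6 CPM in wild type), which binds phosphatidylserine, were higher in the knockout. SIRPA, the receptor of CD47, was at 199 to 222 CPM in the knockout and 206 to 237 CPM in wild type and did not pass the test (adjusted p 0.611, edgeR).

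Of 24 kinases, phosphatases and adaptors of ITIM and ITAM signalling, 7 rose and 13 fell (median -0.31). FGR, a SRC family kinase of myeloid cells, had 186, 159.5, 176, 168 and 166 CPM in CD33KO_shPTPN6 and 12.03, 15.5 and 16.7 CPM (lowest, median and highest) in WT_shPTPN6 (log2 3.495 ± 0.09, adjusted p 1.26e-63, edgeR). SRC was at 41.0 to 49.5 CPM in the knockout and 7.22 to 11.7 CPM in wild type. Against these rises, TYROBP, the adaptor of TREM2, had 651, 598, 573, 624 and 582 CPM in the knockout and 1108, 1182 and 1289 CPM in wild type. PTPN22, a phosphatase that acts on SRC family kinases, had 0.494, 0.914, 0.449, 0.515 and 0 CPM in the knockout and 16.7, 18.5 and 19.9 CPM in wild type. The inositol phosphatase gene INPP5D (log2 -0.56 ± 0.06), the adaptor gene DOK2 (-1.21 ± 0.08) and PTPN11 (-0.48 ± 0.10) were lower as well.

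Phagocytic and complement receptors fell more often than they rose, in 13 against 6 of 23 tested genes (median -0.58). Their summed level was not lower, at 8303 to 8961 CPM in the knockout and 7215 to 8601 CPM in wild type. These ranges overlapped, and ITGB2, given below, made up most of both sums. CD163, the haemoglobin scavenger receptor, had 0.988, 3.66, 2.24, 1.55 and 3.68 CPM in CD33KO_shPTPN6 and 83.6, 89.7 and 95.6 CPM (lowest, median and highest) in WT_shPTPN6 (log2 -5.15 ± 0.19, adjusted p 1.09e-40, edgeR). FCGR1A, the high-affinity IgG receptor, had 0.494, 1.83, 0, 0 and 0 CPM in the knockout and 12.02, 14.7 and 19.5 CPM in wild type. ITGAM, the alpha chain of complement receptor 3, had 53.8, 53.9, 65.1, 66.5 and 63.8 CPM in the knockout and 164, 174 and 192 CPM in wild type. All 3 were lower in every knockout library than in any wild-type one, and SCARB1, a lipoprotein receptor, and the beta-glucan receptor CLEC7A also fell (log2 -2.46 and -2.65). ITGAX, the alpha chain of complement receptor 4, and CD14, a co-receptor for lipopolysaccharide, rose (log2 0.89 and 0.61). ITGB2, the beta chain shared by both complement receptors, was at 5988 to 6749 CPM in the knockout and 5192 to 6587 CPM in wild type and did not pass the test (adjusted p 0.148, edgeR).

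The NADPH oxidase list fell in 7 of 9 tested genes and rose in 1. CYBB, the catalytic subunit gp91phox, had 166, 159, 186, 148 and 169 CPM in CD33KO_shPTPN6 and 558, 588 and 618 CPM (lowest, median and highest) in WT_shPTPN6 (log2 -1.83 ± 0.06, adjusted p 1.09e-54, edgeR). NCF4, which encodes p40phox, had 42.0, 39.3, 42.2, 54.6 and 38.4 CPM in the knockout and 161, 166 and 176 CPM in wild type. The knockout libraries were the lowest for both genes. RAC2, the GTPase of the complex, was higher at 528 to 585 CPM in the knockout against 419.8 to 497 CPM in wild type. CYBA, which encodes p22phox, had 149 to 193 CPM in the knockout and 126 to 194 CPM in wild type without passing the test (adjusted p 0.267, edgeR).

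**Figure D3:**
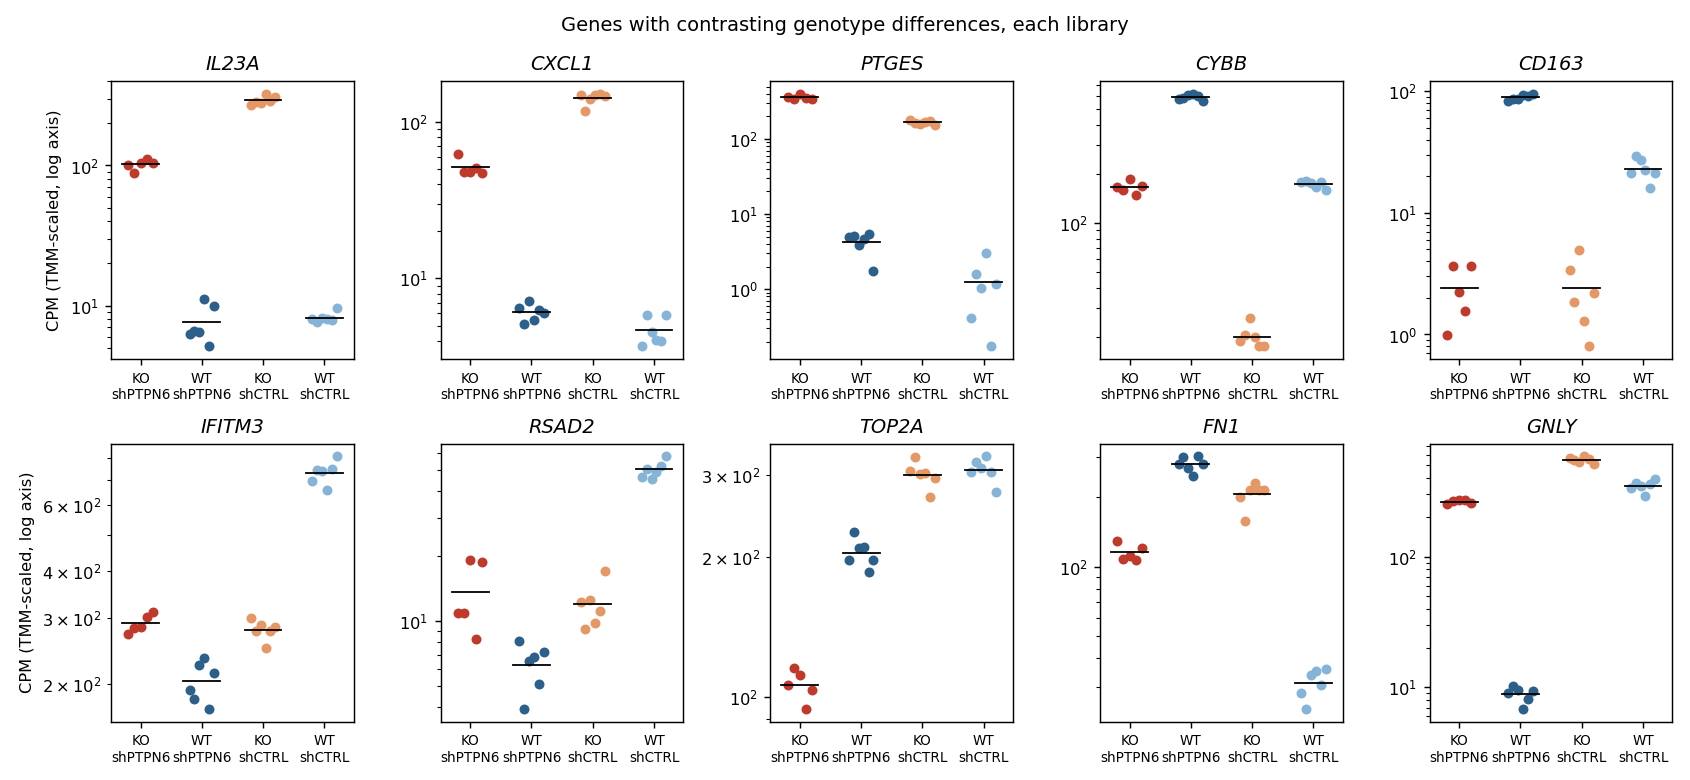
CPM on a log axis of 10 genes in each library of the 4 groups, with the group mean as a line. IL23A, CXCL1 and PTGES are higher, and CYBB, CD163 and TOP2A lower, in CD33KO_shPTPN6 than in WT_shPTPN6. IFITM3, RSAD2, FN1 and GNLY are among the genes whose genotype difference changed with the vector.

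Cell cycle genes fell almost throughout. Of 41 tested genes of DNA replication and mitosis 38 fell and 0 rose, and the median log2 fold change was -0.99. TOP2A, topoisomerase II alpha of dividing cells, had 106, 116, 112, 94.3 and 104 CPM in CD33KO_shPTPN6 and 186, 203 and 226 CPM (lowest, median and highest) in WT_shPTPN6 (log2 -0.94 ± 0.06, adjusted p 2.23e-26, edgeR). PLK1, a mitotic kinase, had 7.41, 9.14, 6.73, 6.19 and 12.3 CPM in the knockout and 24.6, 31.3 and 32.5 CPM in wild type. MKI67, which encodes the proliferation marker Ki-67, had 51.9, 37.9, 54.8, 41.2 and 39.3 CPM in the knockout and 79.2, 88.9 and 105 CPM in wild type. The groups did not overlap for these 3 genes, nor for MCM2, a subunit of the replicative helicase (36.0 to 47.4 CPM in the knockout, 65.0 to 71.3 CPM in wild type). MCM7, another helicase subunit, was at 90.4 to 105 CPM in the knockout and 97.2 to 103 CPM in wild type and did not pass (adjusted p 0.685, edgeR), and the other two that did not pass were E2F1 and CCNE2.

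Transcripts for oxidative phosphorylation were also lower. Of 15 mitochondrial genome transcripts 13 fell and 1 rose (median -0.52), and of 38 nuclear subunit genes 32 fell and 3 rose (median -0.44). MT-CYB, cytochrome b, had 3228, 3181, 2848, 3054 and 2927 CPM in CD33KO_shPTPN6 and 4301, 4689.9 and 5189 CPM (lowest, median and highest) in WT_shPTPN6. UQCRH, a complex III subunit, had 813, 758, 772, 739 and 758 CPM in the knockout and 1369, 1461 and 1501 CPM in wild type. Neither gene's groups overlapped. The transcript that rose, the ribosomal RNA MT-RNR2 (log2 0.13 ± 0.04, adjusted p 0.0102, edgeR), lost its call without WT_shPTPN6 replicate 1 (adjusted p 0.0844) and without replicate 4 (0.0932), with library totals in place of TMM (0.152) and without the filter (0.303). Of 37 cytosolic ribosomal protein genes, 25 fell and 3 rose (1 without the filter), by small margins (median -0.15). RPLP0 was at 341 to 399 CPM in the knockout and 627 to 752 CPM in wild type.

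Of 23 tested cholesterol synthesis genes, 16 fell and 3 rose (median -0.63). Summed over the list, levels were 1675 to 1784 CPM in CD33KO_shPTPN6 and 2327 to 2457 CPM in WT_shPTPN6. PLIN2 and LPL, given next, are lipid genes but not genes of cholesterol synthesis. PLIN2, the coat protein of lipid droplets, had 1898, 1992, 2125, 1867 and 2012 CPM in CD33KO_shPTPN6 and 230.1, 271 and 283 CPM (lowest, median and highest) in WT_shPTPN6 (log2 2.88 ± 0.05, adjusted p 1.51e-78, edgeR). LPL, lipoprotein lipase, had 168, 151, 165, 145 and 157 CPM in the knockout and 58.6, 68.4 and 81.7 CPM in wild type. Both stood apart from wild type in every library, and SCD, the stearoyl-CoA desaturase, stood below it (91.9 to 114 CPM in the knockout, 310.3 to 346 CPM in wild type). Of 27 tested genes at Alzheimer's disease risk loci, 6 rose and 12 fell (median -0.04). TREM2, a microglial lipid receptor, had 176, 182, 206, 182 and 176 CPM in the knockout and 369, 394 and 409 CPM in wild type. APOE, the apolipoprotein E gene, had 56.8, 67.6, 53.0, 59.8 and 50.3 CPM in the knockout and 15.9, 25.01 and 31.3 CPM in wild type. SORL1, an endosomal sorting receptor, was at 2.47 to 4.09 CPM in the knockout and 37.0 to 53.8 CPM in wild type. TREM2 and SORL1 were thus lower and APOE higher without overlap.

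Stress and metal genes gave mixed counts. Of 6 tested metallothionein and zinc response genes 5 rose and 1 fell (median 1.18), with MT2A, a metal-binding protein gene, at 248, 262, 247, 229 and 277 CPM in CD33KO_shPTPN6 and 32.9, 34.9 and 45.1 CPM (lowest, median and highest) in WT_shPTPN6. GDF15, a stress-induced cytokine gene, had 1936, 1719.9, 2249, 1893 and 2034 CPM in the knockout and 75.2, 79.9 and 87.2 CPM in wild type (log2 4.60 ± 0.06, adjusted p 3.53e-92, edgeR). FTH1, the ferritin heavy chain, had 8386, 9013, 8189, 8046 and 8736 CPM in the knockout and 3535, 4009 and 4215 CPM in wild type. The knockout libraries were the higher ones throughout for these 3 genes. Antioxidant genes split 9 higher to 6 lower of 18, with SLC7A11, the cystine transporter, higher (2.21 ± 0.06) and HMOX1, haem oxygenase 1, lower (-0.96 ± 0.07). Glycolysis and hypoxia genes split 10 to 12 of 29, with NDRG1, a hypoxia-induced gene, higher (1.43 ± 0.05) and the glycolytic enzyme genes PFKP (-1.76 ± 0.07) and GAPDH (-0.996 ± 0.05) lower. Lysosome genes split 13 to 14 of 39 (median -0.02), close to the shares over all genes.

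Of 36 tested matrix genes, 23 rose and 12 fell (median 0.50). ITGA1, a collagen receptor subunit, had 141, 145, 156, 129 and 145 CPM in CD33KO_shPTPN6 and 2.10, 2.74 and 4.22 CPM (lowest, median and highest) in WT_shPTPN6. TIMP1, a metalloproteinase inhibitor, was at 1595 to 1734 CPM in the knockout and 361 to 419.9 CPM in wild type, while TIMP3, another, was at 65.7 to 82.6 CPM in the knockout and 126 to 169.8 CPM in wild type. TGFBI, a matrix protein gene of macrophages, had 149.7, 131, 123, 123 and 109.6 CPM in the knockout and 1367, 1426 and 1592 CPM in wild type (log2 -3.51 ± 0.06, adjusted p 8.32e-79, edgeR). ITGA1 and TIMP1 were thus higher, and TIMP3 and TGFBI lower, in every knockout library. In antigen presentation, 8 of 15 class I genes rose and 2 fell (median 0.18), with HLA-E, a ligand of NKG2A, at 361 to 405 CPM in the knockout and 88.2 to 107 CPM in wild type. Of 9 class II genes 4 fell and 1 rose (2 and 0 with a filter at 5 CPM, and 0 rose without CD33KO_shPTPN6 replicate 5), with CD74, the invariant chain, at 97.8 to 119 CPM in the knockout and 304 to 382 CPM in wild type. HLA genes are close relatives whose reads the counting could divide wrongly.

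The remaining lists were divided. Of 20 tested genes of complement, coagulation and fibrinolysis 5 rose and 8 fell (median -0.25). PLAUR, the urokinase receptor, had 1778, 1897, 2011, 1999.9 and 1921 CPM in CD33KO_shPTPN6 and 305, 326 and 339 CPM (lowest, median and highest) in WT_shPTPN6. TFPI2, an inhibitor of the tissue factor pathway, was at 40.9 to 59.0 CPM in the knockout and 2.73 to 3.91 CPM in wild type. C3, the central complement component, was at 36.1 to 51.0 CPM in the knockout and 93.7 to 114 CPM in wild type, and PROCR, the protein C receptor, at 5.15 to 9.38 CPM in the knockout and 59.8 to 70.7 CPM in wild type. The first 2 rose and the last 2 fell without overlap. Heat shock chaperones rose in 10 and fell in 3 of 17 genes (median 0.39), and genes of the ER chaperone and integrated stress response list rose in 12 and fell in 9 of 24 (median 0.13). PHGDH, the first enzyme of serine synthesis, fell within that list to 6.42 to 16.0 CPM in the knockout, against 42.8 to 59.0 CPM in wild type. Markers of macrophage maturation rose in 12 and fell in 9 of 25 genes (median 0.20), alternative activation genes rose in 3 and fell in 6 of 13 (median -0.52), and markers of immature myeloid cells rose in 3 and fell in 4 of 8 (median -0.08). Lipid-associated macrophage genes rose in 9 and fell in 6 of 19, LXR targets and efflux genes rose in 4 and fell in 8 of 15, and iron genes rose in 5 (3 without CD33KO_shPTPN6 replicate 1) and fell in 4 of 13.

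Most genes called with both vectors had the same direction of genotype difference. The control vector comparison, which uses separate libraries, called 3711 genes (28.3%) higher and 3717 (28.4%) lower. Both comparisons called 5277 genes, 4807 in the same direction, and Pearson's r of the log2 fold changes was 0.783 across the 13098 genes (Spearman's rho 0.664), which are not independent replicates. Of the genes higher under knockdown 66.5% were also higher with the empty vector (68.2% of the genes higher there), and of those lower 63.3% were also lower (61.3% of the genes lower there). The difference between the 2 genotype effects, tested as an interaction in the same edgeR fit, was called for 3717 genes (28.4%), 1900 (14.5%) more positive and 1817 (13.9%) more negative under knockdown. In 470 genes (3.59%) both effects were called with opposite signs.

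**Figure D4:**
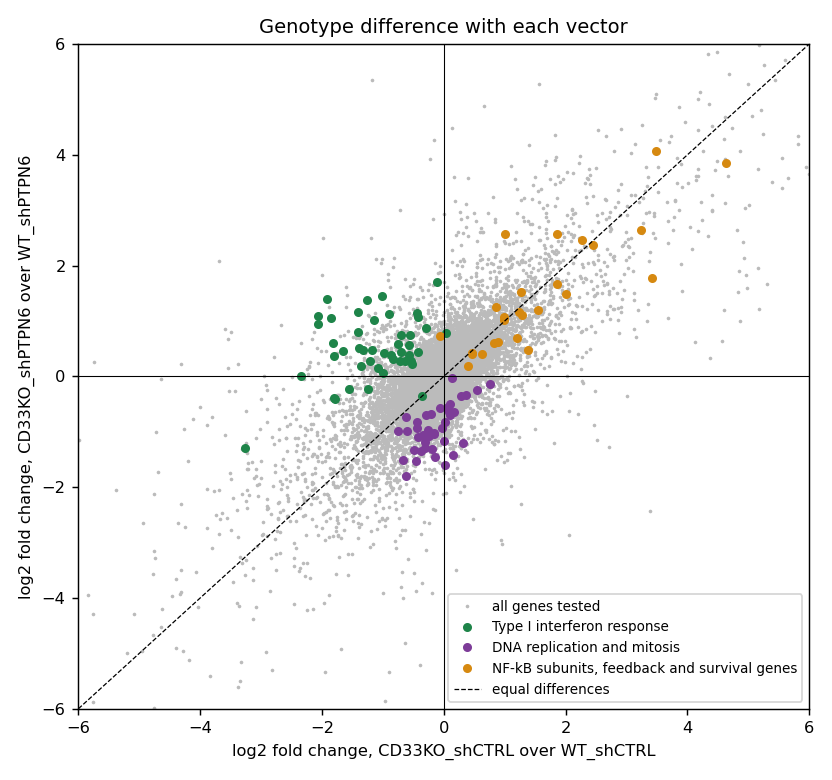
Log2 fold change of knockout over wild type under PTPN6 knockdown (vertical) and with the empty vector (horizontal) for each gene tested, with 3 lists in colour and the line of equal differences dashed. The interferon response genes lie left of 0 and mostly above it, most replication genes below the dashed line, and the NF-kB genes along it. 66 genes lie outside the axes.

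The genotype difference in interferon response genes went in opposite directions with the 2 vectors. Interferon response genes encode antiviral proteins and the factors that switch them on. With the PTPN6 hairpin 34 of 47 tested genes rose and 5 fell (median 0.45), whereas with the empty vector 0 rose and 45 fell (median -1.01), and the difference between the 2 effects was called in 45 of 47, all more positive under knockdown. Under knockdown the groups did not overlap for 16 of the 47 genes, against 37.2% of all genes. IFITM3, which blocks virus entry, had 273, 282, 285, 302 and 312 CPM in CD33KO_shPTPN6 and 172, 204 and 235 CPM (lowest, median and highest) in WT_shPTPN6. With the empty vector it had 249.5, 281 and 300.2 CPM in CD33KO_shCTRL and 657, 742 and 810.2 CPM in WT_shCTRL. The knockout libraries overlapped between the vectors, while wild type was highest of the 4 groups with the empty vector and lowest with the hairpin. The log2 fold change was 0.51 ± 0.06 under knockdown and -1.39 ± 0.05 with the empty vector, a difference of 1.90 ± 0.08 (adjusted p 1.32e-32, edgeR).

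ISG15, a ubiquitin-like modifier, had 137, 118, 151, 141 and 157 CPM in CD33KO_shPTPN6 and 48.2, 67.7 and 79.8 CPM (lowest, median and highest) in WT_shPTPN6, and averaged 176 ± 10.2 CPM in CD33KO_shCTRL and 328 ± 46.3 CPM in WT_shCTRL. RSAD2, the antiviral enzyme viperin, had 10.9, 10.97, 19.3, 8.25 and 18.8 CPM in the knockout and 3.91, 6.67 and 8.09 CPM in wild type, and averaged 12.03 ± 2.84 CPM in CD33KO_shCTRL and 50.5 ± 4.498 CPM in WT_shCTRL. No knockout library was below a wild-type one for these 2 genes under knockdown. TRIM22, an antiviral ubiquitin ligase, and IFI27 were likewise higher under knockdown (log2 1.45 and 1.40) and lower with the empty vector (-1.01 and -1.91). The 5 members lower under knockdown were OAS1 (log2 -0.41 ± 0.09), BST2 (-0.36 ± 0.08), IFITM2, MX1 and MX2, of which 3 were called without CD33KO_shPTPN6 replicate 1, 3 or 5. Summed over the list, the level was 2694 to 3553 CPM in CD33KO_shPTPN6 and 2069 to 2598 CPM in WT_shPTPN6, and 4217 to 4762 CPM in CD33KO_shCTRL and 7661 to 8787 CPM in WT_shCTRL. Both hairpin groups thus lay below both empty vector groups in every library. The response element core was found on either strand in 33 of 50 promoters (66.0%) of 38 of these 47 genes. It was found in 3.57% of all 35116 promoters and in 3.03% of promoters of genes tested. This list was chosen by its known response to interferon, so the share describes the list and does not bear on the genotype difference. The ISG15 stretch above holds 2 overlapping matches and that of IFITM3 holds 2 separate ones.

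Replication genes differed mainly under knockdown. With the empty vector 5 of 41 were higher and 19 lower (median -0.16), and the difference between the effects was called in 36 of 41, all more negative under knockdown. The summed level was 1146 to 1252 CPM in CD33KO_shPTPN6 and 2007 to 2144 CPM in WT_shPTPN6, against 2648 to 2812 CPM in CD33KO_shCTRL and 2654 to 2858 CPM in WT_shCTRL. The empty vector groups overlapped and the hairpin groups did not. RRM2, the ribonucleotide reductase subunit of dividing cells, had 23.7, 20.1, 17.5, 18.6 and 23.7 CPM in CD33KO_shPTPN6 and 39.9, 48.1 and 57.6 CPM (lowest, median and highest) in WT_shPTPN6, and averaged 56.9 ± 6.61 CPM in CD33KO_shCTRL and 45.1 ± 3.76 CPM in WT_shCTRL, so its genotype difference changed sign (-1.53 ± 0.15, adjusted p 5.71e-16, edgeR).

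Of the 15 mitochondrial genome transcripts 6 were higher and 1 lower with the empty vector, and the difference was called more negative under knockdown in all 15. Their summed level was 64825 to 67541 CPM in CD33KO_shPTPN6 and 77380 to 87753 CPM in WT_shPTPN6. Ribosomal protein genes moved the other way, with 0 higher and 34 lower of 37 with the empty vector (median -0.43) and a more positive difference called in 21. NF-kB genes were higher in 25 of 26 cases with both vectors, with a median of 1.18 under knockdown and 1.25 with the empty vector and a difference called in 4 genes upward and 8 downward. Chemokines were higher with both vectors, in 12 and 14 of 17, but less so under knockdown, with a median of 1.84 against 3.86 and a more negative difference called in 13. CXCL1 averaged 51.2 ± 6.60 CPM in CD33KO_shPTPN6 and 6.09 ± 0.751 CPM in WT_shPTPN6 (SD, n = 5 and 6), and 142 ± 12.8 CPM in CD33KO_shCTRL and 4.66 ± 0.961 CPM in WT_shCTRL (SD, n = 6 each). The difference for CXCL1 was -1.92 ± 0.20 (adjusted p 9.84e-15, edgeR).

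**Figure D5:**
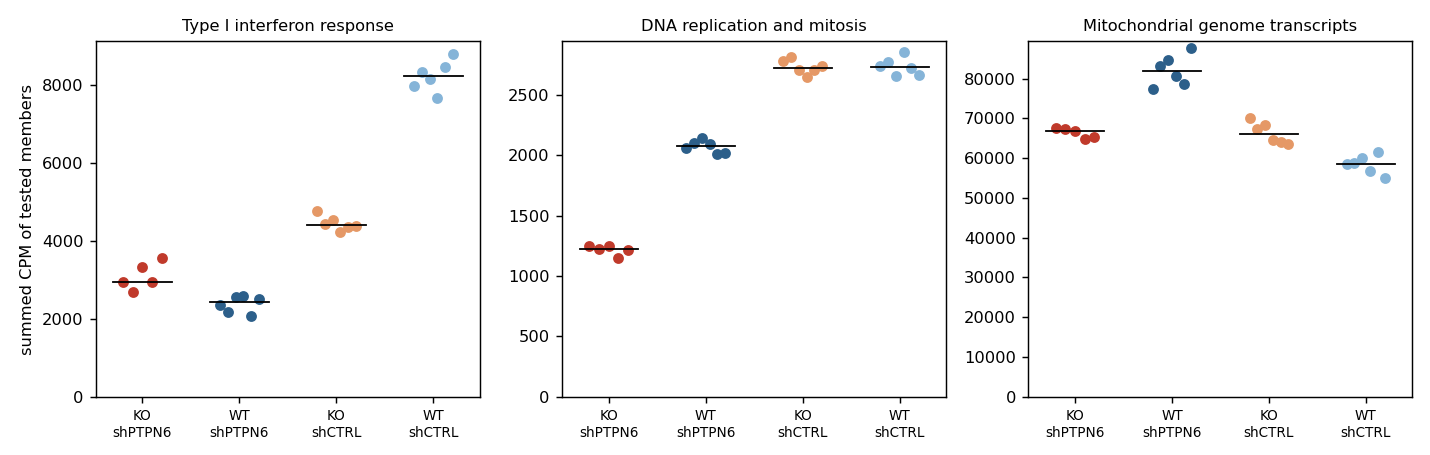
Summed CPM of the tested members of 3 lists in each library of the 4 groups, with the median as a line and axes from 0. Interferon response genes are at 2694 to 3553 CPM in CD33KO_shPTPN6 and 2069 to 2598 CPM in WT_shPTPN6, below both empty vector groups. Replication genes are lowest in CD33KO_shPTPN6, at 1146 to 1252 CPM.

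The single genes with the clearest difference between the genotype effects included secreted and surface proteins. GNLY, the cytolytic protein granulysin, had 252, 266, 271, 273 and 260.1 CPM in CD33KO_shPTPN6 and 6.83, 9.26 and 10.2 CPM (lowest, median and highest) in WT_shPTPN6. With the empty vector it averaged 550.4 ± 27.9 CPM in CD33KO_shCTRL and 349 ± 34.1 CPM in WT_shCTRL (difference 4.22 ± 0.10, adjusted p 1.38e-63, edgeR). The wild-type hairpin libraries stood far below the other 3 groups. MMP1, the interstitial collagenase, had 244, 255, 231, 204 and 219.6 CPM in the knockout and 4.52, 5.68 and 8.74 CPM in wild type under knockdown, and averaged 356 ± 21.7 CPM in CD33KO_shCTRL and 121 ± 7.32 CPM in WT_shCTRL (difference 3.73 ± 0.12). PDGFA, a growth factor gene, had 645, 675, 657, 639 and 658 CPM in the knockout and 187, 192 and 203 CPM in wild type under knockdown, against 509.9 ± 20.8 CPM in CD33KO_shCTRL and 715 ± 18.1 CPM in WT_shCTRL, so its genotype difference turned from lower to higher. LMO4, a transcriptional cofactor gene, BMP8B, a growth factor gene, and PNOC, which encodes a neuropeptide precursor, had differences of 1.81 ± 0.06, 2.47 ± 0.07 and 2.59 ± 0.09.

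In the opposite direction, CDCP1, a transmembrane substrate of SRC kinases, had 19.3, 21.5, 22.0, 23.2 and 17.2 CPM in CD33KO_shPTPN6 and 142, 149 and 167 CPM (lowest, median and highest) in WT_shPTPN6. It averaged 37.7 ± 5.02 CPM in CD33KO_shCTRL and 9.10 ± 1.262 CPM in WT_shCTRL, so the knockout was lower with the hairpin and higher without it (difference -4.93 ± 0.15, adjusted p 8.49e-54, edgeR). FN1, the fibronectin gene, had 129.9, 108, 112, 107 and 121 CPM in the knockout and 249, 279.6 and 301 CPM in wild type under knockdown, against 206 ± 25 CPM in CD33KO_shCTRL and 31.4 ± 4.63 CPM in WT_shCTRL (difference -3.99 ± 0.11). CYP1B1, a cytochrome P450 gene, and APOC1, an apolipoprotein gene, turned over in the same way, with differences of -3.34 ± 0.13 and -3.08 ± 0.14. S100A8, a calcium-binding protein gene of myeloid cells, was at 299 to 351 CPM in the knockout and 430.0 to 516 CPM in wild type under knockdown, and at 175 to 224 CPM in CD33KO_shCTRL and 56.7 to 83.0 CPM in WT_shCTRL. For these 5 genes every wild-type hairpin library was above all libraries of the other 3 groups.

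The genotype difference was not spread evenly over the genome. On chromosome 12, 400 of 705 tested genes were lower in CD33KO_shPTPN6 and 102 higher (56.7% and 14.5%), with a median log2 fold change of -0.44, and -0.40 with the empty vector. In its window of 1 to 10000000 bases, which holds PTPN6, CD163 and GAPDH, 57 of 82 genes were lower and 6 higher (median -0.78). On chromosome 6, 285 of 678 genes were higher and 165 lower (42% and 24.3%), and in the windows from base 10000001 to 20000000 and from 20000001 to 30000000, 27 of 36 and 34 of 52 genes were higher and 0 and 2 lower, with medians of 0.86 and 0.87. The rise did not cover the whole chromosome. From base 70000001 on, every window with at least 20 tested genes had a negative median (-0.44 to -0.02). On chromosome 19, 366 of 905 genes were higher and 143 lower (40.4% and 15.8%), and the median was 0.20, as on chromosome 6. Among genes named above, LYZ, CLEC7A and IL23A, for example, also lie on chromosome 12, and HLA-E and IER3 at chr6:30489467-30494205 and chr6:30743199-30744554. In the chromosome 6 window that holds HLA-E and IER3, from base 30000001 to 40000000, 89 of 156 genes were higher and 10 lower (median 0.46). These examples are not a full list of the named genes on these chromosomes. What part position has in these gene differences was not tested.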

How the data were processed

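The authors deposited 1 table of raw counts per gene, not normalised, for 23 libraries of PMA-treated THP1 cells. Per the submitters' processing notes the tools were bcl2fastq, STAR 2.7.3a, featureCounts of Subread 2.0.0 and DESeq2 1.26.0 in R 3.6.1, with build hg38. The annotation release and the strand setting are not given in the sources used here. Libraries were made with QuantSeq from the 3' end, so counts were not divided by length, and whether unique molecular identifiers were used is not given.

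Of 60617 identifiers, 42000 (69.29%) were matched to a symbol, and positions came from GENCODE 29 (GRCh38). Genes kept by filterByExpr (13098) were scaled by TMM and fitted in edgeR 4.0.16 (R 4.3.3) with the quasi-likelihood test, robust, as 1 model of 4 group means, so that all 23 libraries share the estimate of spread. Contrasts were knockout minus wild type under knockdown, the same with the empty vector, and their difference. P-values were Benjamini-Hochberg adjusted over all genes tested, with a threshold of 0.05. SE is the log2 fold change divided by the square root of F. CD33 and PTPN6 were also given two-sided exact permutation tests. Floors and intervals cover counting error only. The script was tested on simulated counts.

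Alternatives were DESeq2 1.42.0 and its size factors, library totals, no filter, a filter at 5 CPM, the 11 libraries alone, thinning to 1 depth, a replicate block and leaving out each library. Named genes are the 8 largest rises and falls with a mean of at least 5 CPM, from each of 38 lists up to 3 called members per direction with the smallest adjusted p and up to 2 uncalled members with the highest mean CPM, 6 genes per direction with the smallest adjusted p for the difference, and list members whose 2 genotype effects were called in opposite directions, some being left out for length. Members and lists were chosen with earlier results of these data known. LYZ, IL1B, TNF, CXCL8, NFKBIA, TNFAIP3, FCGR1A, TLR4, PTPN11, INPP5D, PLK1, MKI67, MCM2, EGR1 and ALOX5, and genes named to complete a short count, were chosen after their values were seen. No 2 libraries agreed within sampling noise. CD33KO_shPTPN6 replicate 2 was not analysed here. Some genes are not reported here.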

Additional observations from a re-analysis of the deposited data

Results flagged for a closer look

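In 22 of 262 groups of libraries that stand behind named genes, 1 library lay so far from its group that the gap passed Dixon's 95% limit for that group size, and chance alone does so in about 1 of 20 groups. In CD33KO_shPTPN6 replicate 1 this concerned ALOX5 at 2.47 CPM (the rest 8.25 to 10.5), CXCL1 at 62.7 CPM (the rest 47.0 to 50.5), S100A8 at 351 CPM (the rest 299 to 312) and SRC at 41.0 CPM (the rest 48.9 to 49.5). In CD33KO_shPTPN6 replicate 3 this concerned FCGR1A at 1.83 CPM (the rest 0 to 0.494). In CD33KO_shPTPN6 replicate 4 this concerned TREM2 at 206 CPM (the rest 176 to 182). In CD33KO_shPTPN6 replicate 5 this concerned LTA4H at 138 CPM (the rest 151 to 156) and NCF4 at 54.6 CPM (the rest 38.4 to 42.2). In WT_shPTPN6 replicate 1 this concerned IER3 at 283 CPM (the rest 207 to 229), NFKBIA at 417 CPM (the rest 283 to 322) and PFKP at 240.4 CPM (the rest 222 to 229). In WT_shPTPN6 replicate 2 this concerned BMP8B at 113 CPM (the rest 117 to 119.9), MYC at 17.8 CPM (the rest 23.1 to 25.9), PHGDH at 59.0 CPM (the rest 42.8 to 48.7) and PYCARD at 105 CPM (the rest 114 to 117). In WT_shPTPN6 replicate 4 this concerned FCN1 at 41.5 CPM (the rest 45.7 to 47.8). In WT_shPTPN6 replicate 5 this concerned HMOX1 at 209 CPM (the rest 174 to 187), IL18 at 28.3 CPM (the rest 15.7 to 20.2), PLIN2 at 230.1 CPM (the rest 269 to 283) and RPLP0 at 752 CPM (the rest 627 to 669.9). In WT_shPTPN6 replicate 6 this concerned BCL2A1 at 50.3 CPM (the rest 37.0 to 41.5) and NDRG1 at 424 CPM (the rest 377 to 392).

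The 18 genes below were named because their knockout effect differed between the PTPN6 hairpin and the empty vector. Values are the interaction term of the edgeR fit (log2 scale, effect under knockdown minus effect with the empty vector). Since that call picked them, 18 is not a count of all named genes that differed. CXCL1, for example, differed too, and over all genes tested 28.4% were called. The knockout effect was more positive under knockdown for GNLY (4.22), MMP1 (3.73), IFI27 (3.31), RSAD2 (3.17), PNOC (2.59), BMP8B (2.47), TRIM22 (2.46), PDGFA (2.25), ISG15 (2.02), IFITM3 (1.90) and LMO4 (1.81). It was more negative for CDCP1 (-4.93), FN1 (-3.99), CYP1B1 (-3.34), APOC1 (-3.08), S100A8 (-2.02), TIMP3 (-1.88) and RRM2 (-1.53). The hairpin and empty vector libraries are separate. The hairpin vector also differs from the empty vector in carrying a hairpin at all, which cannot be told apart from the lowering of PTPN6 here.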

How the results depend on the processing

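No call of a named gene reversed in 31 alternatives, 23 of which left out 1 library. Nor did any of the 18 differences between the vectors, which the 11 libraries alone could not test. Counts of genes cannot reverse and were compared by size only. Genes higher and lower by at least 2-fold numbered 702 and 650 with a filter at 5 CPM, which tests fewer genes. The lower PTPN6 level in the knockout lost its call with counts thinned to 1 depth (log2 -0.40, adjusted p 0.118 by edgeR) and without CD33KO_shPTPN6 replicate 1 or 6, and over the libraries left out it ran from -0.74 to -0.42. The cause was not tested. CD33 ran from -2.01 to -1.80. Leaving out 1 library gave 3509 to 3806 genes higher, 3411 to 3814 lower, 1052 to 1167 and 1034 to 1092 past 2-fold, and 1731 to 1867 and 1698 to 1876 with a more positive or more negative difference between the vectors. DESeq2's Wald test called 3674 higher and 3609 lower, library totals in place of TMM 3327 and 4064 (median of all genes -0.054), and the 11 libraries alone 3532 and 3516. Thinning to 1 depth left 3372 higher and 3125 lower. Of 129 named genes beside CD33 and PTPN6, 126 kept direction and side of the threshold in every alternative, CCL23, CD40 and MT-RNR2 being the others, and of 76 list counts 63 stayed within 1.5 times.

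With the replicate number as a block 3754 genes were higher and 3540 lower. Same-numbered libraries of the 2 groups did not deviate together (correlations -0.023 to 0.104, and 1 of 5 correlated best with its own number), so the numbers were not treated as pairs. In simulated data 24 of 50 genes changed by 1.25-fold and 48 of 50 changed by 2-fold were called in this comparison. There 12898 genes were left unchanged, so far fewer genes changed than were called in these data. The changed genes also had a mean of at least 5 CPM. These rates therefore describe the simulated setting and need not hold for the real comparison.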
